A study of Mus musculus with 4 samples.

Results

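The EGR and NR4A early response factors were described through the genes Egr1, Egr2, Egr3, Nr4a1, Nr4a2, Nr4a3 and Myc. They were represented by all probe sets whose platform annotation gave one of these symbols alone, which were 16 of the 45101 probe sets on the array, for 7 of 18193 genes. A probe set is a group of short probes on the array for one transcript. Egr1, Nr4a1 and Myc each had 1 probe set, Egr2 and Egr3 had 2, Nr4a3 had 3 and Nr4a2 had 6. All 16 reached the level minimum used for calls, the pooled median of 5.82 (log2), on at least 1 array.

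The study asked what STAT4 and STAT6, which carry the signals of interleukin-12 and interleukin-4, do to gene expression in helper T cells. Its expression part consists of 4 arrays of CD4+ T cells from mouse spleen and lymph nodes, 1 array for each of 4 groups. The groups were Th1 STAT4-deficient cells (genotype C57BL6-STAT4<tm1>, STAT4KO), Th1 wild type cells (C57BL/6J), Th2 STAT6-deficient cells (B6.129S2©-STAT6<tm1Gru>/J, STAT6KO) and Th2 wild type cells (C57BL/6J). In every group the sorted CD44-CD62L+ cells were activated with antibodies to CD3 and CD28 for 3 days, then grown in interleukin-2 at 50 U/ml for 4 days. The Th1 cultures held interleukin-12 and anti-interleukin-4, and the Th2 cultures held interleukin-4 and anti-interferon gamma. On day 7 all 4 cultures were stimulated again through CD3 and CD28 for 2 h, with interleukin-12 at 20 ng/ml (Th1) or interleukin-4 at 10 ng/ml (Th2), and RNA was then taken. All values below are therefore levels 2 h into a second stimulation, and unstimulated cells were not analysed here. Age, sex and number of mice, and whether cells were pooled, are not given in the labels, and with 1 array per group no difference has a replicate check or a p-value.

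EGR proteins are zinc finger transcription factors, and NR4A proteins are nuclear receptors that act without a known natural hormone. Their genes are switched on within minutes to hours of T cell receptor engagement, through calcium, calcineurin and NFAT, and through RAS, MAP kinase and SRF. Egr1 is linked to growth and cytokine transcription, whereas Egr2 and Egr3 are known for restraining T cells after stimulation. Nr4a1, a common reporter of receptor signal strength, and its relatives Nr4a2 and Nr4a3 are linked to tolerance, exhaustion and regulatory T cells. Myc drives cell growth and metabolism in activated T cells and is induced by the same stimulation.

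Promoter sequences were available for 4 of the 7 genes, in the RefSeq table of build GRCm38.p6: Egr2, Nr4a1, Nr4a2 and Nr4a3. They are shown because these genes are all induced by stimulation. Each window is the 250 bases before an annotated transcript start, written 5′ to 3′ on the strand of the gene. Capitals mark TGACG, the core of the cyclic AMP response element (CRE) bound by CREB, read on either strand (as TGACG or CGTCA), and in Egr2 also the CArG box, which is bound by SRF.
Egr2 (chr10:67537619-67537868, plus strand): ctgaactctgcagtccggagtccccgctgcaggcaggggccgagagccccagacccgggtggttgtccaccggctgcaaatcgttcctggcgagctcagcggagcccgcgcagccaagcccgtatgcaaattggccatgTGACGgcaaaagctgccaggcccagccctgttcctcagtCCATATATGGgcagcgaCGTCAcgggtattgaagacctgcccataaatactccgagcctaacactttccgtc
Nr4a1 (chr15:101266596-101266845, plus strand): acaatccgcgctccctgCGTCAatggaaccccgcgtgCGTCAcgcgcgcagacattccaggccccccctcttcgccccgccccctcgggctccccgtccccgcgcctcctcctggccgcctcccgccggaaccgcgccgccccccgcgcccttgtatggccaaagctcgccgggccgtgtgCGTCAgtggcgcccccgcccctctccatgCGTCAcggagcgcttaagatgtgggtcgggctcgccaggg
Nr4a2 (chr2:57124004-57124253, minus strand): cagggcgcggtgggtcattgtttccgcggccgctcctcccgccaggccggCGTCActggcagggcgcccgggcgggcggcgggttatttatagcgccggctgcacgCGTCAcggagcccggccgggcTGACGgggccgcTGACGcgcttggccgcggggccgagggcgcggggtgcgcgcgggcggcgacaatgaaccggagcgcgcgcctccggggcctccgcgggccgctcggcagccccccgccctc
Nr4a3 (chr4:48045055-48045304, plus strand): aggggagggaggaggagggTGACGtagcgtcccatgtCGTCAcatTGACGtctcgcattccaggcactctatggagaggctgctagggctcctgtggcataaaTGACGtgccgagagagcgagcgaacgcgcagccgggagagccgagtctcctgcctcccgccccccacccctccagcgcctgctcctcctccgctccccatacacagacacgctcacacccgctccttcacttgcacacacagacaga

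The table held 8 windows for these genes, 5 of them for Egr2, where 3 overlap almost entirely. The CRE core, chosen after the sequences were seen, stood in windows of all 4 genes, with 4 copies each in Nr4a1, Nr4a2 and Nr4a3, and in 17.8% of the 32851 windows of all genes. The CArG box stood in 4 of the 5 Egr2 windows, in none of the 3 NR4A windows, and in 1.47% of all windows. The full CRE (TGACGTCA, 1.55% of all windows), the AP-1 site (TGANTCA, 6.75%) and the NR4A site NBRE (AAAGGTCA, 1.34%) were in none of the 8. The EGR site GCGNGGGCG, searched on both strands like the others, was found in the Nr4a1 and Nr4a2 windows and in 4.7% of all. The STAT motif TTCNNNGAA (7.02% of all windows) and the STAT6-type motif, which has a longer spacer (5.85%), were in none of the 8. A window of Egr2 further upstream held the E-box CACGTG (6.02% of all windows), to which MYC binds. Another held TGGAAA, the core of NFAT sites (18.6%), where it overlaps a CArG box. A match describes letters in a window and not binding.

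The labelled cell type was checked first, together with facts that touch every value. The 7 measured T lineage genes, Cd3d, Cd3e, Cd3g, Cd4, Cd5, Cd28 and Thy1, were at or above the level minimum on all 4 arrays, and their summed level ran from 15.18 to 15.37 (log2). Single T lineage genes still passed the 2-fold limit: Cd3e (1.14), Cd4 (1.05) and Cd5 (1.31) were higher in Th1 than in Th2 wild type cells, and Cd28 was lower under STAT4 loss (−1.01). Of the 4 B cell markers 3, 0, 0 and 2 reached the minimum in Th1 STAT4-deficient, Th1 wild type, Th2 STAT6-deficient and Th2 wild type cells, with no value over 6.22. The summed level of the 7 myeloid and dendritic markers was 8.72, 8.81, 8.38 and 9.53 in the same order, highest in Th2 wild type cells, where Adgre1 read 8.26. The CD8 and NK markers summed to between 8.75 and 9.29. The mast and basophil markers summed to between 7.54 and 9.01, highest in Th2 wild type cells, where Cpa3 read 8.64. Ifng read 10.54 in Th1 STAT4-deficient cells and 14.67 in Th1 wild type cells. Of Ifng, Il4, Il5 and Il13, 3 reached the level minimum under STAT4 loss. There 2 were more than 2-fold higher (largest 3.01) and 1, Ifng, lower, beside 6.18% and 5.34% of all genes. Under STAT6 loss 1 of the 4 was more than 2-fold higher (2.02) and 1, Il5, lower, beside 7.01% and 19.5%. Of the Th2 cytokines, Il5 read 5.95 in STAT6-deficient and 12.31 in Th2 wild type cells, whereas Il4 (13.22 in STAT6-deficient and 14.17 in Th2 wild type cells) and Il13 (12.08 in STAT6-deficient and 12.26 in Th2 wild type cells) differed by less than 2-fold. Stat4 read 9.20 in STAT4-deficient cells against 11.45 in Th1 wild type cells. Stat6 read 10.92 in STAT6-deficient and 10.93 in Th2 wild type cells, and whether its probes lie in the deleted part is not known here. Il12rb2 read 6.53 in STAT4-deficient and 9.63 in wild type Th1 cells, and 4.52, below the level minimum, in Th2 wild type cells. Il4ra read 9.42 in STAT6-deficient and 11.95 in Th2 wild type cells, lower on its other probe sets too (−3.24 to −0.98). On the STAT6-deficient array the 3′ signal of the actin control exceeded its 5′ signal by 2.08 (log2), against 0.85 in Th2 wild type cells, a sign of RNA quality. In Th1 this difference was 0.66 in STAT4-deficient cells and 0.32 in wild type cells. The part of these measures in the differences below was not tested.

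The EGR genes were lower in Th1 cells without STAT4. Egr1 read 12.43 in STAT4-deficient and 14.19 in wild type Th1 cells, and 13.05 in STAT6-deficient and 13.53 in wild type Th2 cells. The difference under STAT4 loss was −1.76, or 3.38-fold lower, and the STAT4-deficient array was the lowest of the 4. Egr2, on its brighter probe set, read 11.92 in STAT4-deficient and 13.30 in wild type Th1 cells, and 12.59 in STAT6-deficient and 12.30 in wild type Th2 cells. Its other probe set gave 10.76 and 12.10 in the Th1 arrays in the same order, so that both probe sets differed by nearly the same amount (−1.39 and −1.34, 2.61-fold and 2.53-fold lower). Egr3 read 11.76 in STAT4-deficient and 12.97 in wild type Th1 cells, and 11.71 in STAT6-deficient and 11.49 in wild type Th2 cells, on its brighter probe set. That is a difference of −1.21 under STAT4 loss. Its dimmer probe set, at 8.21 and 8.26 in the Th1 arrays, differed by only −0.05, so the 2 probe sets of Egr3 did not give the same size. On every probe set of Egr1, Egr2 and Egr3 the Th1 wild type array was the highest of the 4.

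**Figure D1:**
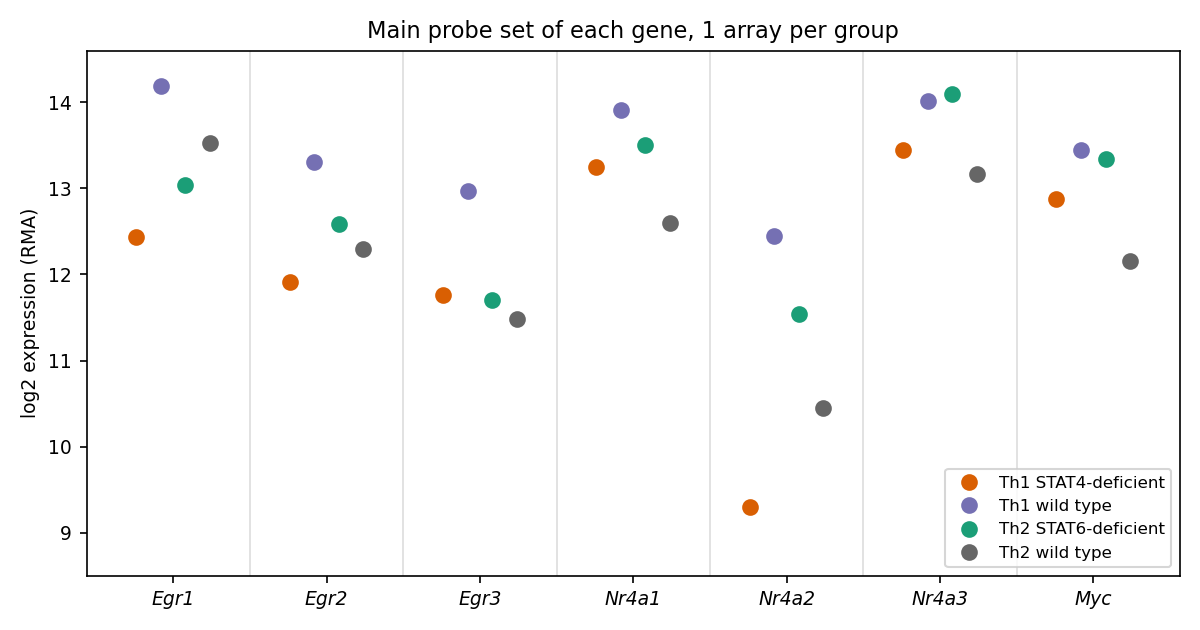
Level of each gene (log2 expression, vertical axis) on its brightest probe set; each point is 1 array, with no error bars because each group has 1 array. Th1 wild type cells are highest for 6 of the 7 genes, and Nr4a2 has the widest range, 9.30 to 12.44.

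Nr4a2 had the largest difference of the 7 genes under STAT4 loss. Its brightest probe set on average read 9.30 in STAT4-deficient and 12.44 in wild type Th1 cells, and 11.54 in STAT6-deficient and 10.45 in wild type Th2 cells. The Th1 difference was −3.14, or 8.84-fold lower. The next 3 Nr4a2 probe sets read 10.28, 9.24 and 8.35 in STAT4-deficient cells, against 13.09, 11.47 and 11.34 in Th1 wild type cells, differences of −2.80, −2.23 and −2.99. The 2 dimmest, which stayed between 6.20 and 7.42 on all arrays, differed by −0.37 and −0.32. The 4 brighter probe sets therefore gave 4.68-fold to 8.84-fold, and the 2 dim ones 1.29-fold and 1.25-fold.

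Nr4a1, Nr4a3 and Myc differed less. Nr4a1 read 13.25 in STAT4-deficient and 13.91 in wild type Th1 cells, and 13.50 in STAT6-deficient and 12.59 in wild type Th2 cells. Its difference under STAT4 loss, −0.66, stayed under the 2-fold limit. Nr4a3, on its brightest probe set, read 13.45 in STAT4-deficient and 14.02 in wild type Th1 cells, and 14.10 in STAT6-deficient and 13.17 in wild type Th2 cells. The STAT4 loss difference was −0.57 there, and −0.53 and −0.48 on 2 dimmer probe sets, so the 3 probe sets gave similar sizes. Myc read 12.88 in STAT4-deficient and 13.45 in wild type Th1 cells, and 13.35 in STAT6-deficient and 12.16 in wild type Th2 cells, a difference of −0.57 under STAT4 loss. As a technical guide, the probe sets of 1 gene disagreed in this comparison with an SD of 0.48 (log2, over 5412 genes with several probe sets at the level minimum). The differences of Nr4a1, Nr4a3 and Myc are close to that SD, whereas those of Egr1, Egr2, Egr3 and Nr4a2 are more than 2 times as large. The guide covers probe behaviour and not variation between mice or cultures.

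A gene was called where its brightest probe set on average differed by at least 1 (log2, 2-fold) and the brighter array reached the level minimum. Under STAT4 loss 4 of the 7 genes were called lower (Egr1, Egr2, Egr3 and Nr4a2) and 0 higher, beside 5.34% of the 12608 genes at the level minimum called lower and 6.18% called higher. The median difference of the 7 genes was −1.21, against 0.13 over all genes at the level minimum. All 16 probe sets were below wild type, beside 41.7% of all probe sets at the level minimum, and 8 of the 16 were called lower, beside 5.47%. All 7 genes were below wild type, beside 41.8% of all genes, and stayed so under the other 4 scalings of the arrays, but the sizes moved. Nr4a2 stayed between −3.38 and −2.76, and Egr1 stayed at −1.33 or below, while Egr2 (−0.97) lost its call after quantile normalization. Egr3 lost its call after quantile normalization (−0.83), after loess (−0.99) and after centring on hybridization controls (−0.82). These controls are transcripts added in known amounts before hybridization. Nr4a1, Nr4a3 and Myc shrank to between −0.33 and −0.17 under the same 3 scalings.

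**Figure D2:**
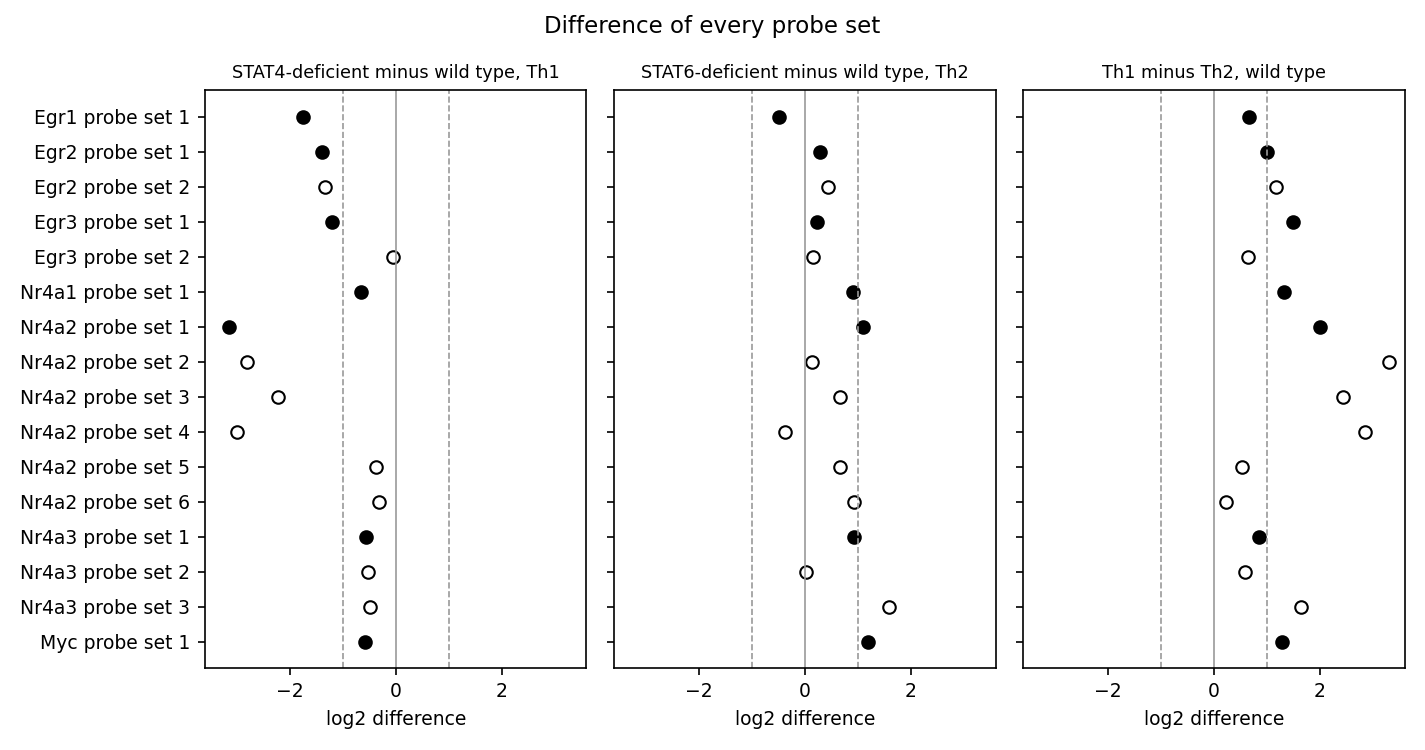
Log2 difference (horizontal axis) of every probe set in the 3 comparisons; filled points are the brightest probe set of a gene, open points the others, numbered by mean level, and dashed lines mark the 2-fold limit. All 16 points are below 0 for STAT4 loss, 14 are above 0 for STAT6 loss and all 16 are above 0 for Th1 against Th2.

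Without STAT6, Th2 cells had higher values of Myc and of the NR4A genes on their brightest probe sets, with Myc and Nr4a2 past the 2-fold limit, while each EGR gene differed by less than 2-fold. Myc was 1.18 (2.27-fold) higher, at 13.35 in STAT6-deficient against 12.16 in Th2 wild type cells. Nr4a1 differed by 0.91 (1.88-fold) and Nr4a3 by 0.93 (1.91-fold), both just under the 2-fold limit. The 2 dimmer Nr4a3 probe sets gave 0.01 and 1.58, the second against 5.13 in Th2 wild type cells, which is below the level minimum. Nr4a3 was the only one of the 7 genes whose brightest probe set was highest in STAT6-deficient cells.

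Nr4a2 passed the limit on its brightest probe set, at 1.09, just inside it. The other 5 probe sets ran from −0.37 to 0.92, and none of them was called. When the median level over its 6 probe sets was taken on each array first, the difference was 0.14. The EGR genes showed smaller differences, with Egr2 at 0.29 and 0.44 on its 2 probe sets, Egr3 at 0.22 and 0.16, and Egr1 at −0.48. The probe sets of 1 gene disagreed with an SD of 0.65 in this comparison, which is larger than any of these EGR differences. Myc and the NR4A genes exceeded that SD on their brightest probe sets. None of the 7 genes reached 2 times that SD there.

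Of the 7 genes, 2 (Nr4a2 and Myc) were called higher and 0 lower under STAT6 loss, beside 7.01% of 11490 genes called higher and 19.5% called lower. The median of the 7 was 0.91, against −0.30 over all genes. Of the 16 probe sets 14 were above wild type, beside 38.6% of all probe sets at the level minimum, and 3 were called higher, beside 8.95%. Above wild type were 6 of the 7 genes, beside 34.3% of all genes. Egr1 stayed below wild type and the other 6 genes above it under all 4 other scalings. Myc kept its call under these scalings (1.07 to 1.33). Nr4a2 lost its call after centring on hybridization controls (0.98), and Nr4a1 and Nr4a3 gained one after median centring (1.05 and 1.07), as did Nr4a1 after quantile normalization (1.03). These values come from the array with the large actin 3′ minus 5′ difference.

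**Figure D3:**
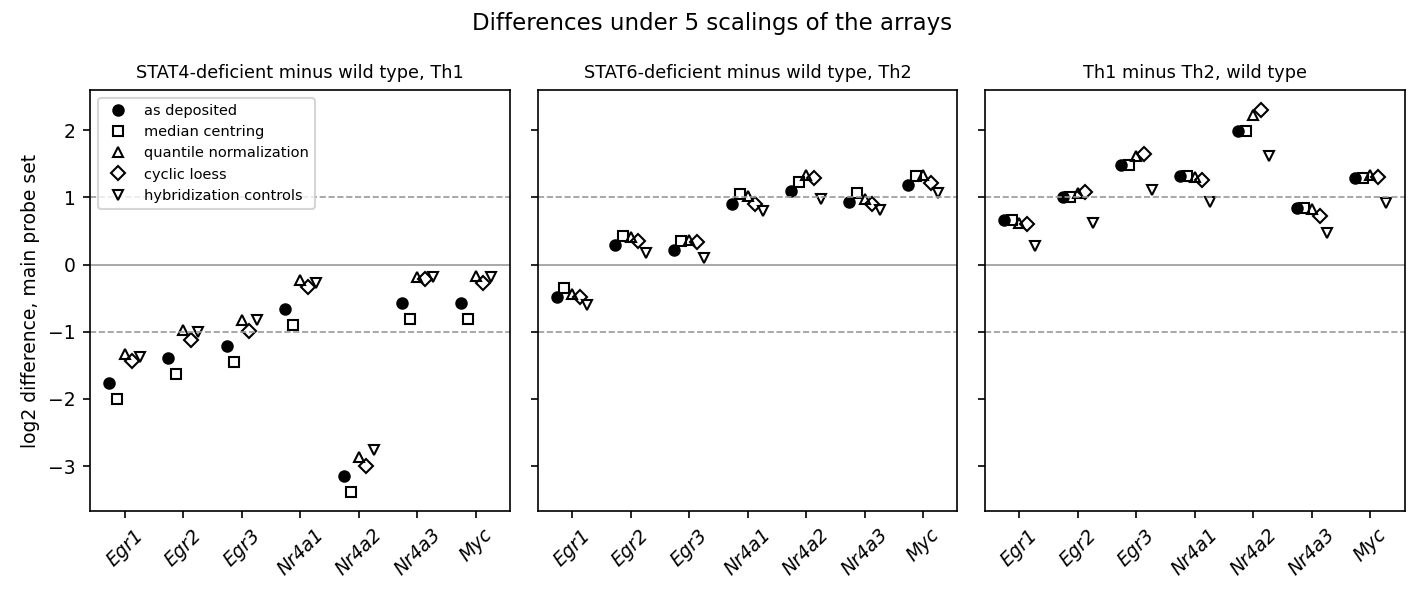
Log2 difference of each gene on its brightest probe set (vertical axis) in the 3 comparisons, as deposited (filled) and under 4 other scalings of the arrays (open); dashed lines mark the 2-fold limit. No gene changes sign, but Nr4a1, Nr4a3 and Myc come close to 0 for STAT4 loss under 3 of the scalings.

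Between the wild types, all 7 genes were higher in Th1 than in Th2 cells. Nr4a2 had the largest difference, 1.99 (12.44 in Th1 against 10.45 in Th2 wild type cells, 3.98-fold). Its other 3 bright probe sets gave 3.30, 2.43 and 2.85, and the 2 dim ones 0.52 and 0.22. Egr3 was 1.48 (2.79-fold) and Nr4a1 1.32 (2.49-fold) higher in Th1 cells.

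Myc was 1.29 (2.44-fold) higher in Th1 cells, and Egr2 was just past the limit on its brighter probe set, at 13.30 in Th1 against 12.30 in Th2 wild type cells, and 1.17 higher on the other. Egr1 (0.66) and Nr4a3 (0.85) stayed under the 2-fold limit. In all, 5 of the 7 genes were called higher in Th1 and 0 in Th2 cells, beside 8.14% of 12111 genes called higher in Th1 and 25.4% called higher in Th2 cells. Of the 16 probe sets all were above 0, beside 37.2% of all, and 10 were called, beside 9.28%. The probe-set SD was 0.71 here, and the median over all genes was −0.37. On the brightest probe sets only Nr4a2 and Egr3 differed by more than 2 times that SD. All 7 genes were above 0, beside 34.6% of all genes, and stayed so under the 4 other scalings. Centring on hybridization controls ended the calls of Egr2 (0.63), Nr4a1 (0.94) and Myc (0.91). This comparison shares the Th1 wild type array with STAT4 loss and the Th2 wild type array with STAT6 loss, so a high or low value on a shared array enters both. Whether the wild type cells of the 2 culture conditions came from the same mice is not given, and source and culture condition cannot be told apart.

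The brightest probe sets put the 4 arrays in 5 different orders, given here from high to low. Egr1 had Th1 wild type, Th2 wild type, Th2 STAT6-deficient and Th1 STAT4-deficient cells. Egr2 and Nr4a2 had Th1 wild type, Th2 STAT6-deficient, Th2 wild type and Th1 STAT4-deficient cells. Egr3 was highest in Th1 wild type cells, and its other 3 arrays lay between 11.49 and 11.76. Nr4a1 and Myc had Th1 wild type, Th2 STAT6-deficient, Th1 STAT4-deficient and Th2 wild type cells. Nr4a3 had the same order with the first 2 exchanged (14.10 in Th2 STAT6-deficient and 14.02 in Th1 wild type cells). With 1 array each, the spread needed to separate such neighbours is not known.

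The likeness of profiles was measured as the root mean square distance, in log2 units over the 4 arrays, between genes centred on their own mean. Among the 7 genes Nr4a1 and Myc were closest (0.12), followed by Nr4a3 and Myc (0.18) and by Nr4a1 and Nr4a3 (0.22). Egr2 was 0.31 from both Egr1 and Egr3. Nr4a2 was farthest from the others, at 0.70 to 0.95, and its range over the arrays was the widest. Of 13147 genes that reached the level minimum on at least 1 array, the 3 nearest to Egr1 were Alpk2, Spty2d1 and Them5 (0.05 to 0.07). The nearest to Egr2 were Pim3, a serine/threonine kinase, Neto2 and Ly75 (0.05 to 0.07). Those nearest to Egr3 were Ppp1r15a, which encodes the stress phosphatase regulator GADD34, Sat1 and Tsc22d2 (0.05 to 0.07).

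Nr4a1 lay nearest to Erbin, Nfkbib, an inhibitor of NF-kappaB, and Zfp36l1, which promotes mRNA decay (0.06 to 0.07). Plek, which encodes pleckstrin, was 0.06 from Nr4a2, and the next, Zfp948 and Il23a, were 0.33 and 0.41 away. Nr4a3 was nearest to Angptl1, Cox4i2 and D8Ertd738e (0.00 to 0.05), and Myc to Taf4b, Evl and Mrpl52 (0.07 to 0.09). Some of these neighbours were dim. Angptl1 read 5.87 to 6.80 over the 4 arrays and Cox4i2 6.18 to 7.06. Zfp948 read 4.72 to 7.05, and Them5, near Egr1, 4.05 to 5.99. At such levels almost all probe sets share their exact value with others. With 4 points a profile can be matched by many unrelated genes, and these distances describe these arrays only.

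Among 36 other early response genes, which include AP-1 subunits, KLF factors and dual-specificity phosphatases, 21 were called lower under STAT4 loss and 0 higher, with a median of −1.23, beside 5.34% and 6.18% of all genes. Btg2, an antiproliferative gene, differed by −2.53, Crem, a CREB family repressor and activator, by −2.46, Fosl2, an AP-1 subunit, by −2.43, and Ier3 by −2.21. Other probe sets gave 0.26 for Crem and up to −0.57 for Fosl2. Not called were 15 of the 36, among them Jund (−0.56), Dusp2 (−0.67), Dusp5 (−0.79), Dusp6 (−0.11) and Klf2 (0.88). The number called lower stayed between 16 and 23 under the other scalings.

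Under STAT6 loss 8 of the 36 were called higher and 2 lower, beside 7.01% and 19.5% of all genes, but 5 higher and 6 lower after centring on hybridization controls. They had a median of −0.00 that other scalings moved to between −0.12 and 0.20. Dusp1, a MAP kinase phosphatase (1.95), Plk2 (1.75, the other probe set 0.70) and Gadd45b (1.59, with another probe set at 0.18) were higher. Crem (−2.26, with another probe set at 0.97) was lower. Between the wild types 16 were called higher in Th1 and 1 in Th2 cells (median 0.90), beside 8.14% and 25.4% of all genes. These counts were 20 and 1 after loess, and 10 and 3 after centring on hybridization controls. The list was led by Btg2 (3.82), the NF-kappaB subunit gene Rel (2.77), Jun (2.72) and Maff (2.51).

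Read-outs of T cell activation mostly stayed within 2-fold under STAT4 loss. Il2 read 14.39 in STAT4-deficient and 14.53 in wild type Th1 cells, and Cd69, an early surface marker, 12.11 and 12.29. These were the smallest differences of the 8 genes in the list. As deposited all 8 were below wild type (−1.59 to −0.14), beside 41.8% of all genes. Of the 8 genes only Icos (−1.59) was called, beside 6.18% of all genes called higher and 5.34% lower. The median of the 8 was −0.29, which turned to between 0.01 and 0.09 after quantile normalization, loess or centring on the hybridization controls. Under STAT6 loss Il2 (2.31) and Cd69 (2.04) were called higher and Tnfrsf9 (−1.08) and Icos (−1.26) lower, beside 7.01% and 19.5% of all genes. Between Th1 and Th2 wild type cells Il2 (2.07), Cd40lg (2.02) and Cd69 (2.00) were called higher in Th1 cells. Tnfrsf9 (−2.33, but 1.07 on another probe set) and Il2ra (−1.03, the other probe set −0.32) were called higher in Th2 cells. Over all genes 8.14% were called higher in Th1 and 25.4% in Th2 cells.

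**Figure D4:**
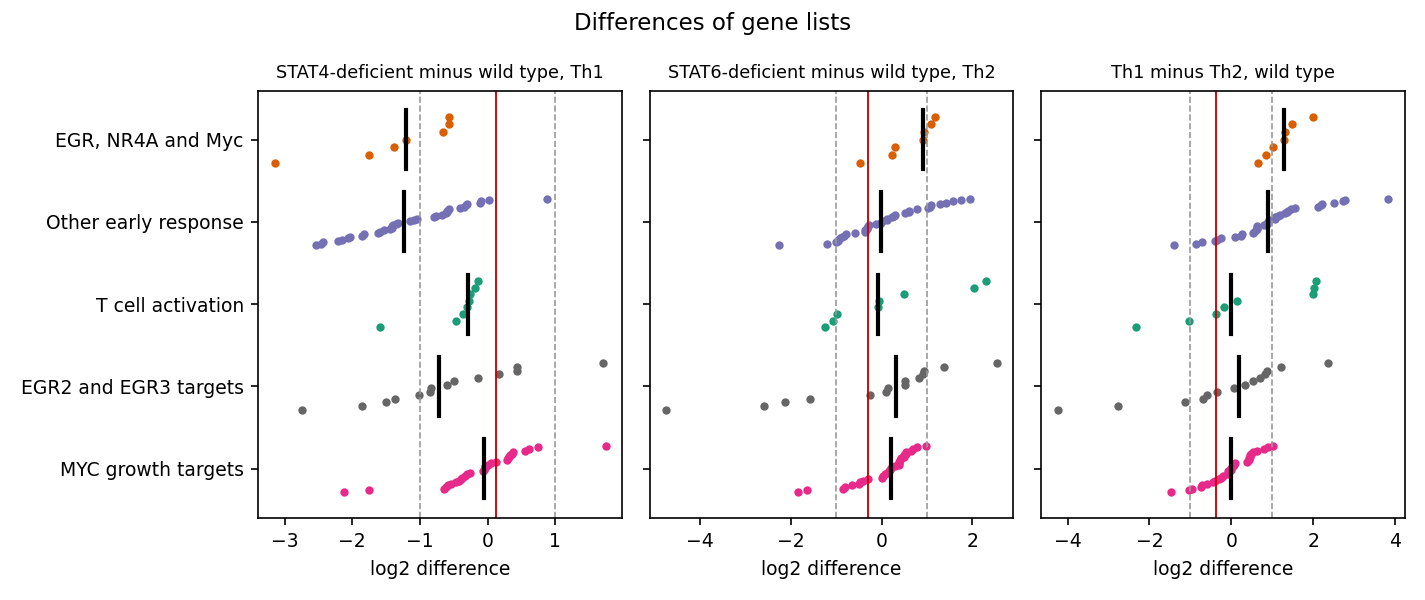
Log2 difference (horizontal axis) of each gene at the level minimum in 5 lists and 3 comparisons; each point is a gene, the black bar the median of the list, the red line the median of all genes and dashed lines the 2-fold limit. Under STAT4 loss the medians of the EGR, NR4A and Myc genes (−1.21) and of the other early response genes (−1.23) lie left of the line at 0.13.

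Nab1 and Nab2, the corepressors that bind EGR proteins, and Egr4 were measured as well. Nab2, itself known as an EGR target, read 11.58 in STAT4-deficient and 12.42 in wild type Th1 cells, and 11.29 in STAT6-deficient and 11.20 in wild type Th2 cells. It was not called under either loss as deposited (−0.84 and 0.09) and was 1.22 higher in Th1 than in Th2 wild type cells. Nab1 differed by −0.86 under STAT4 loss and was called lower under STAT6 loss (−1.25, with other probe sets from −1.74 to −0.26). After median centring 2 of these 3 genes were called lower under STAT4 loss. Egr4 stayed between 7.37 and 7.92 on all arrays.

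Of 14 genes listed as targets of EGR2 and EGR3 in T cells, 5 were called lower and 1 higher under STAT4 loss, beside 5.34% and 6.18% of all genes, with a median of −0.72. Socs3, a feedback inhibitor of cytokine receptors, differed by −2.75, Lag3, an inhibitory receptor, by −1.86, and Zbtb32 read 8.98 in STAT4-deficient against 10.48 in wild type Th1 cells, with another probe set 0.15 higher. Nrgn was 1.70 higher, against 5.08 in Th1 wild type cells, below the level minimum. The number lower ran from 3 to 7 under the other scalings. Under STAT6 loss 2 were higher and 4 lower, beside 7.01% and 19.5% of all genes (median 0.33, with 4 or 5 higher under 3 of the scalings). The largest differences were those of Rnf128, which encodes the ubiquitin ligase GRAIL (−4.75), Socs3 (−2.61), Fasl (2.55) and Socs1 (−2.12). Among the wild type cells Rnf128 (−4.24) and Nrgn (−2.77) were higher in Th2 cells, and Fasl (2.35) and Nab2 higher in Th1 cells. In all 2 were higher in Th1 and 3 in Th2 cells, beside 8.14% and 25.4% of all genes. The list's counts were 4 and 2 after quantile normalization or loess, and 1 and 4 after centring on hybridization controls. Socs1 and Socs3 are also known as targets of STAT proteins.

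Of 9 genes linked to NR4A in T cells 2 were called higher and 2 lower under STAT4 loss, beside 6.18% and 5.34% of all genes. After quantile normalization or loess 2 were higher and 1 lower, and after centring on hybridization controls 3 were higher and 0 lower. Foxp3 read 6.81 in STAT4-deficient cells and 4.34, below the level minimum, in wild type Th1 cells, so its difference has no firm size. Other called genes were Tox at 2.09, and the inhibitory receptor genes Havcr2 at −1.12 and Pdcd1 at −1.08. Under STAT6 loss 4 of 8 were higher and 3 lower, beside 7.01% and 19.5% of all genes, with Tox2 at −5.16 (another probe set −0.52), Tox at 2.80 (against 4.75 in Th2 wild type cells, below the level minimum), Nrn1 at 2.79 and Havcr2 at −2.49. In the wild type comparison 2 were higher in Th1 cells, Tox (2.46, against the same low Th2 value) and Nrn1 (2.10). In Th2 cells 4 were higher (2 after quantile normalization or loess), including Tox2 (−5.10, another probe set −0.60) and Havcr2 (−4.12). Over all genes 8.14% were higher in Th1 and 25.4% in Th2 cells. The RXR genes encode partners with which NR4A1 and NR4A2 pair. Rxra was 1.36 higher under STAT4 loss on its main probe set (another gave 0.17) and −2.21 between the wild types (another gave 0.49). Rxrb differed by 0.21, 0.15 and −0.41 under STAT4 loss, under STAT6 loss and between the wild types. Rxrg differed by −0.17, −0.48 and 0.49, and neither was called.

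Of the genes that carry the stimulus to these factors, none of 12 calcineurin and NFAT genes was called under STAT4 loss (median 0.34), beside 6.18% of all genes called higher and 5.34% lower. After median centring 1 was lower, and after centring on hybridization controls 1 was higher. Probe sets other than the main one gave up to 1.49 for Nfatc3 (main 0.89) and 1.05 for Nfatc2 (main −0.77). Of 14 RAS, MAP kinase and SRF genes Mrtfa, an SRF cofactor (1.44), was called higher, and Elk3, which pairs with SRF (−1.36, with other probe sets up to 0.93), and Sos2 (−1.01) lower, which became 3 higher and 0 lower after centring on hybridization controls. Srf itself differed by −0.40. Of 12 genes for MEF2, CREB and their cofactors 4 were higher, with Hdac7, which binds MEF2 proteins and represses, at 1.86, and 1, Crem, was lower. Cabin1 (1.34, other probe sets down to −0.59) was also higher, and Mef2c read 6.29 in STAT4-deficient cells and 4.91, below the level minimum, in wild type Th1 cells, with another probe set at −0.04.

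Under STAT6 loss 2 calcineurin and NFAT genes were higher, Nfatc1 (1.35, other probe sets down to 0.39) and Rcan1 (1.13, the other probe set −0.53). The 3 lower ones were the calcineurin subunit gene Ppp3cc (−2.60), Nfatc2 (−2.08, other probe sets up to 0.51) and Stim1 (−1.18). Over all genes 7.01% were called higher and 19.5% lower. Nras (−1.29) and Mrtfb (−1.06, another probe set 0.41) were lower in the RAS list, with 0 higher. The number lower was 5 after centring on hybridization controls and 1 under the other 3 scalings. Hdac7 was 1.87 higher in the MEF2 and CREB list. Between the wild types 1 calcineurin and NFAT gene, Orai1 (1.04), was higher in Th1 cells. Nfatc2 (−1.81, other probe sets up to 0.44) and Ppp3cc (8.89 in Th1 against 9.90 in Th2 wild type cells) were higher in Th2. The shares of all genes were 8.14% higher in Th1 and 25.4% higher in Th2 cells. After centring on hybridization controls 0 calcineurin and NFAT genes were higher in Th1 and 5 in Th2 cells. In the RAS list 5 were higher in Th2 cells, led by Sos1 (−2.57, another probe set 0.42) and Map2k1 (−1.85), but 2 after quantile normalization or loess and 8 after centring on hybridization controls. In the MEF2 and CREB list Crtc3 (−1.41) and Cabin1 (−1.10, another probe set 0.47) were higher in Th2 cells. In that list 0 were called after quantile normalization or loess and 4 after centring on hybridization controls.

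MYC acts as a dimer with MAX, and the MXD proteins and MNT compete for MAX. Under STAT4 loss Mxi1 (−2.02) and Mxd1 (−1.38) were lower and Tfap4, a MYC target gene (1.76), higher among 12 genes. Over all genes 5.34% were called lower and 6.18% higher. Under STAT6 loss, where Myc was 1.18 higher, Mlxip (1.38) and Mxd1 (1.28) were called higher, and Mxi1 (−1.95), Mxd3 (−1.56) and Mxd4 (−1.36) lower. The shares of all genes were 7.01% higher and 19.5% lower. Max read 7.57 in STAT4-deficient and 7.35 in wild type Th1 cells, and 6.37 in STAT6-deficient and 6.20 in wild type Th2 cells, and was called higher in Th1 wild type cells (1.14). Between Th1 and Th2 wild type cells Mxd1 (1.95) was also higher in Th1 cells. Mxd3 (−1.64) and Mxi1 (−1.12, the other probe set 0.59) were higher in Th2 cells. The shares of all genes were 8.14% higher in Th1 and 25.4% higher in Th2 cells.

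Of 30 MYC target genes of growth, 0 were called higher under STAT6 loss and 2 lower, beside 7.01% and 19.5% of all genes. The number higher was 1 after median centring, quantile normalization and loess. The lower ones were Slc2a1, a glucose transporter gene (−1.84), and Nop58 (−1.65), and the list's median was 0.20, against −0.30 over all genes. Under STAT4 loss 1 was higher, Cad, an enzyme of pyrimidine synthesis (1.74, another probe set 0.37). The 2 lower were Slc2a1 (−2.13) and the hexokinase gene Hk2 (−1.75), beside 6.18% of all genes called higher and 5.34% lower. The median there was −0.05 and ran from −0.28 to 0.34 under the other scalings. Among the wild type cells Ddx21 (1.02, the other probe set 0.15) was higher in Th1 cells. Cad (−1.48, another probe set −0.46) and Ldha (−1.03) were higher in Th2 cells. Over all genes 8.14% were called higher in Th1 and 25.4% in Th2 cells. The list's median there was −0.00. After centring on hybridization controls 0 of the 30 were higher in Th1 and 5 in Th2 cells.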

How the data were processed

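Expression was measured on Affymetrix mouse arrays. The deposited values are log2 expression per probe set; the authors used RMA, per the submitters' processing notes. Whether the arrays were normalized together, and whether RMA alone gave values that lie on whole linear units, is not given in the sources used here. Array medians ran from 5.63 to 6.01, and Pearson correlations across probe sets from 0.92 to 0.96. The number of arrays limits the precision.

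Of 45101 probe sets 64 are controls, and 34945 have 1 gene symbol, 932 several and 9160 none. Symbols were updated through a RefSeq table of GRCm38.p6 (34741 matched). A gene was read from its probe set of highest mean level, for 18193 genes. Python 3.11.15, pandas 2.3.3, R 4.3.3 and limma 3.58.1 (cyclic loess) were used. The code of the call rule was run on simulated arrays with assumed noise and with changes well past the 2-fold limit. That run checks the code only and cannot give the error of calls on these unreplicated arrays.

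The members and gene lists were chosen with earlier results of these data known. Beyond the members, the text names up to 4 called genes per list and comparison, by size, all genes of lists of up to 4, Stat4, Stat6, cell type markers and the 3 nearest profiles. Named after their values were seen were Srf, Rcan1, Il2ra, the cytokine genes, Jund, Dusp2, Dusp5, Dusp6, Klf2 and, under STAT6 loss, Mxd1. Il2 and Cd69 are named under STAT4 loss though not called. Alternatives were 4 scalings, the median over probe sets, other level minimums and other fold limits.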

Additional observations from a re-analysis of the deposited data

How the results depend on the processing

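No paired analysis was possible because each group has 1 array. Under the 4 other scalings no difference of the 7 genes changed sign, and 73 of 84 kept their side of the 2-fold limit, while 8 lost a call and 3 gained one. The level minimums and fold limits leave the differences as they are and move only the calls. Under STAT4 loss, where 4 of the 7 genes and 1452 of all genes were called, quantile normalization left 2 of the 7 and a 4-fold limit 1. All genes called numbered 2725 after centring on hybridization controls, 847 with the level minimum at the 75th percentile, 4010 at 1.5-fold and 184 at 4-fold. Egr3 also fell short with the median over its probe sets (−0.63). Under STAT6 loss, with 2 of the 7 and 3043 of all genes called, 4 of the 7 were called after median centring and at 1.5-fold, 1 after hybridization control centring and with the median over probe sets, and 0 at 4-fold. All genes called numbered 5594 at 1.5-fold and 719 at 4-fold. Between the wild types, with 5 of the 7 and 4058 of all genes called, 2 of the 7 were past the limit after hybridization control centring and 0 at 4-fold, and all genes called numbered 6877 at 1.5-fold and 930 at 4-fold. The share of called genes that were higher was 53.7% under STAT4 loss (24.8% to 87.5% over the scalings), 26.5% under STAT6 loss (20.1% to 43.4%) and 24.3% for Th1 over Th2 (8.89% to 44.9%). Median differences of all genes moved with the scaling, under STAT4 loss between −0.15 and 0.53. Apart from the scalings' own construction, the cause was not tested. Dim probe sets, such as the 2 of Nr4a2 under 7.42, limit what can be seen.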

Other observations

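The deposited values are spaced on a grid. Each array held between 3295 and 3964 distinct values for the 45101 probe sets without the 64 controls. At log2 levels from 6 to 8, turned back to the linear scale, 94.9% to 97.4% of the steps between neighbouring values equalled 1 within 0.01. Different probe sets can therefore share a value exactly.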
